A study of Homo sapiens with 6 samples.

Results

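The 10 genes described here encode the machinery that copies and transcribes human mitochondrial DNA (mtDNA) and the nuclear regulators that set how much of it a cell makes. They are *TFAM*, *TFB1M*, *TFB2M*, *POLRMT*, *POLG*, *TWNK*, *SSBP1*, *PPARGC1A*, *PPARGC1B* and *NRF1*, and were taken by gene name from a deposited table of 58302 genes. Each name matched 1 row, and all 10 had enough counts to be tested. Cells labelled A549, a line from a human lung adenocarcinoma, had been given for 48 h either DMSO, the solvent, or 1.0 µM of the compound S541, also called 5n, a 9-(pyrimidin-2-yl)-9H-carbazole derivative according to the title of the series. Each group has 3 libraries from total RNA, and the labels name no other agent or allele. Nothing in the labels tells separate cultures from repeat preparations. The tests therefore compare these 6 libraries, whose spread may be technical.

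Mitochondrial DNA is transcribed by a dedicated RNA polymerase, POLRMT, which needs TFAM to bend and wrap the promoter and TFB2M to open it. The same genome is replicated by the polymerase POLG behind the helicase TWNK, with the single-stranded DNA covered by SSBP1. All of these proteins are encoded in the nucleus, where NRF1 binds the promoters of many genes for mitochondrial proteins and the PGC-1 coactivators, encoded by *PPARGC1A* and *PPARGC1B*, amplify transcription from them.

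After S541, *TFB2M* was the member of the machinery that rose, about 1.5-fold. None fell. *TFAM* had means of 158 and 160 CPM, and the estimates for the mtDNA polymerase, the helicase, the single-strand binding protein, *NRF1* and the PGC-1 genes did not pass the test. Of the 10 genes, 1 rose and 0 fell, against 8.19% of the 15847 genes tested that changed in either direction, 4.02% that rose and 4.17% that fell (edgeR quasi-likelihood test, adjusted p under 0.05 over all genes). A single call among 10 genes is close to that background. DESeq2 and limma-voom gave the same 1 and 0, and no member with a lower level had an unadjusted p under 0.05. The call of *TFB2M* was fragile, as it held in 1 of 6 edgeR fits with a single library left out. Of 8 other settings, these 2 tools included, 5 kept it.

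The libraries had 13956648 to 17044139 counts each, and every pair of libraries differed by more than counting noise (chi-square of 12.4 to 42.2 for each degree of freedom). DMSO replicate 2 and S541 replicate 3 stood apart from the other 4 libraries on the second principal component of log2 CPM, which held 21.4% of the variance. CPM are counts scaled to the size of the library, with the TMM method of edgeR. Several markers went against the label of the cells. Keratin genes of simple epithelia were abundant, with *KRT8* at 1225 to 1871 CPM and *KRT18* at 609 to 1040 CPM. However, *AKR1B10*, which A549 cells normally express strongly, was at 0.688 to 1.08 CPM, *KRT19* at 0.135 to 1.57 CPM, *CDH1* at 0.491 to 1.149 CPM, and *ALDH1A1*, another gene abundant in A549, had 2 counts over all 6 libraries. *CDKN2A*, which is deleted in A549, was at 118 to 260 CPM, with at least 1881 counts in every library. The identity of the cells was not tested further, and both groups showed these levels. Of the 8 epithelial markers *KRT8* and *KRT18* fell, 0 rose, and 2 had a log2 fold change above 0. The summed level of the 8, mostly from *KRT8* and *KRT18*, went from 2858 to 3157 CPM in DMSO to 2030 to 2261 CPM in S541. Markers of leukocytes summed to at most 1.29 CPM, with *CD3E* at 0, and those of retina, a tissue that the design text names, to at most 0.423 CPM, with *CRX* at 0. Endothelial markers summed to 11.3 to 11.5 CPM in DMSO and 7.92 to 13.8 CPM in S541, with *PECAM1* at no more than 0.675 CPM. Most of that sum came from *CDH5*, at 9.92, 10.1 and 10.5 CPM in DMSO and 7.15, 12.6 and 10.3 CPM in S541. Fibroblast markers summed to 37.4 to 56.9 CPM in DMSO and 30.3 to 36.2 CPM in S541, mostly from *COL1A1*, with *LUM* at 0, and *PDGFRB* fell among them. The part of these marker levels in the results below was not tested.

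Because NRF1 is itself among the genes and is known to bind promoters of the transcription machinery, the promoter windows of the members were searched for its core motif, GCGCA followed by any base and GCGC, on both strands. Windows of 250 bases before to 50 bases after each annotated start came from RefSeq (GRCh38.p14). They were found for 8 of the 10 members, while *TWNK* and *NRF1* had no entry. A RefSeq start need not be the outermost start of the counted gene model. The *PPARGC1B* window (149771690 to 149771989) lies inside its model, which starts at 149730298. For *PPARGC1A*, on the minus strand, 1 window (24472856 to 24473155) lies outside its model, which ends at 23904089. The other (23881052 to 23881351) lies inside it. The motif was in the windows of 3 members, *TFAM*, *TFB1M* and *POLRMT*, and in 5.78% of all 35116 windows. Here and for the motifs below, members were counted by gene, with a match in any of their 11 windows. The shares over all are by window, from 27305 genes, so the units differ. The letters CCGGAAG, the core bound by the GABP and other ETS factors, which also regulate mitochondrial genes, were in the windows of 3 members, *TFB1M*, *POLRMT* and *SSBP1*, and in 10.3% of all windows. AAGATGG, the core of YY1 sites, was in those of *SSBP1* and *PPARGC1A* and in 5.84% of all. The GC content was 65.0 to 68.0% in the windows of *TFAM*, *TFB1M*, *TFB2M*, *POLRMT* and *POLG*, 51.0 to 60.7% in the 3 of *SSBP1*, 72.0 and 44.0% in the 2 of *PPARGC1A* and 46.0% in that of *PPARGC1B*. In the sites below, 5′ to 3′ on the strand of the gene, capitals mark the motif with 10 flanking bases on each side. They are chr10:58385337-58385366 (plus strand, motif read on the other strand, from base −63 relative to the start), chr6:155314597-155314626 (minus strand, from −132), chr19:633542-633571 (minus strand, from −24) for NRF1, and chr6:155314553-155314579 (minus strand, from −85) for the ETS core read on the other strand.
TFAM: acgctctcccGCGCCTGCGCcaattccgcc
TFB1M: gcaggacttaGCGCATGCGCtctcagcacg
POLRMT: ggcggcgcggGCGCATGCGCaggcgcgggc
TFB1M ETS core: gcggtcatcgCTTCCGGtgggataggt
The *POLRMT* window holds a further, overlapping NRF1 match from base −18. The window of *TFB2M*, the gene that rose, held no exact match to the 3 motifs. Only exact letters were searched, so a site that differs in a fixed letter, or lies outside the window, was missed. A match describes letters in a window and is no measure of binding in these cells. The lack of a match likewise does not show that a factor does not bind.

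Among the transcription factors, *TFB2M* (ENSG00000162851, hg38 chromosome 1, 246540560 to 246566324), which melts the mtDNA promoter so that POLRMT can start, had 45.1, 35.1 and 42.8 CPM in DMSO replicates 1 to 3 and 57.6, 68.3 and 59.1 CPM in S541 replicates 1 to 3. Every S541 library lay above every DMSO library, with the lowest S541 value 57.6 and the highest DMSO value 45.1 CPM. The mean went from 41.0 ± 5.24 (SD, n = 3) to 61.7 ± 5.81 CPM, which is 0.59 on the log2 scale (SE 0.12, 95% interval 0.30 to 0.88, edgeR adjusted p = 0.0301). This is a 1.51-fold rise, with an interval of 1.23 to 1.84-fold. CPM are shares of a library, so more of a transcript per cell and less of the other RNA cannot be told apart. Counts ranged from 585 to 1092, no other gene model overlaps its exons, and it has a single annotated transcript. By p-value it ranked 794 of the 15847 genes. In the authors' deposited table the log2 fold change of *TFB2M* was 0.59 with a Q-value of 0.0148, while the Q-values of the other 9 genes in the authors' deposited table were 0.543 or more. The call of *TFB2M* ended without DMSO replicate 1 (adjusted p = 0.0502, edgeR), DMSO replicate 3 (0.0879), S541 replicate 1 (0.0801), S541 replicate 2 (0.110) or S541 replicate 3 (0.0712). It also ended when genes of low counts were kept (0.0514), and it held without DMSO replicate 2 (0.0423). Without both libraries that stood apart the log2 fold change was 0.52 (adjusted p = 0.0584, edgeR), and the ratio of S541 to DMSO was 1.68 between those libraries themselves and 1.43 between the means of the others.

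**Figure D1:**
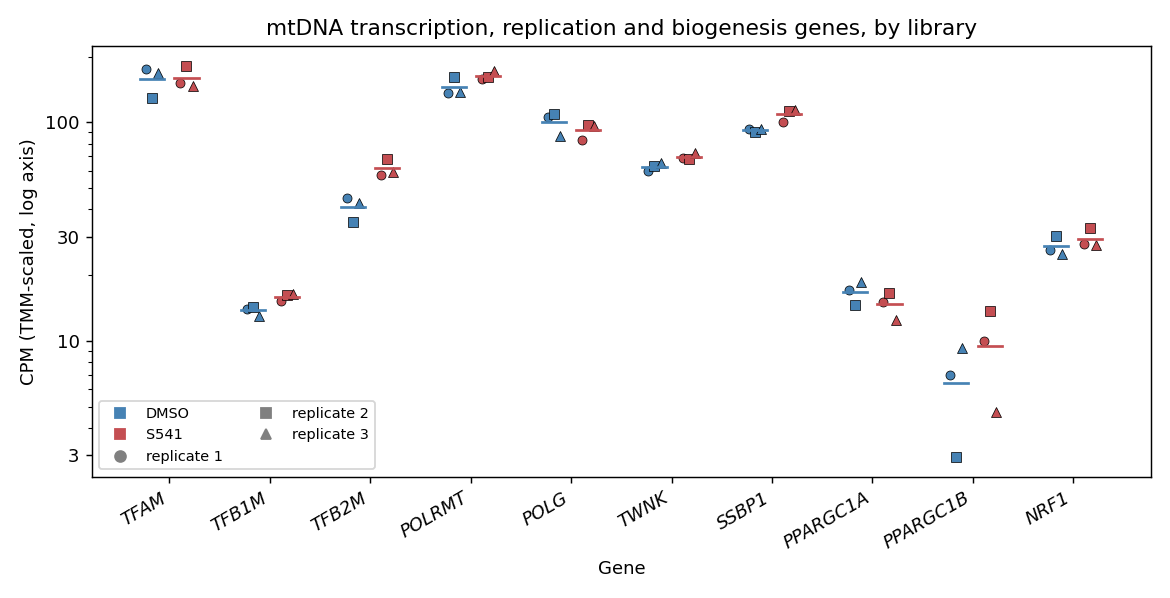
CPM of the 10 genes in each library on a log axis, with DMSO in blue, S541 in red, replicates by symbol and bars for the group means. *TFB2M* rises from 41.0 to 61.7 CPM with no overlap, and the spread is widest for *PPARGC1B*.

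*TFAM* (ENSG00000108064, chromosome 10, 58385022 to 58399221), which packages mtDNA into nucleoids as well as acting at its promoters, had 176, 130 and 169 CPM in DMSO and 151, 182 and 147 CPM in S541. The groups overlapped, with the lowest library, DMSO replicate 2, and the highest, S541 replicate 2, 130 and 182 CPM. The log2 fold change was 0.02 (SE 0.14, 95% interval −0.30 to 0.34, adjusted p = 0.952, edgeR), so changes beyond 0.813 or 1.26-fold lay outside the interval. Its sign turned when DMSO replicate 2 (−0.11) or S541 replicate 2 (−0.08) was left out.

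*TFB2M* and *TFAM* varied alike within each group, both lowest in DMSO replicate 2 among the controls and both highest in S541 replicate 2 among the treated libraries. The ratio of their CPM was therefore more even than either gene. It was 0.256, 0.270 and 0.254 in DMSO and 0.381, 0.375 and 0.401 in S541, with no overlap. This ratio was chosen after the values were seen and is given without a test.

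**Figure D2:**
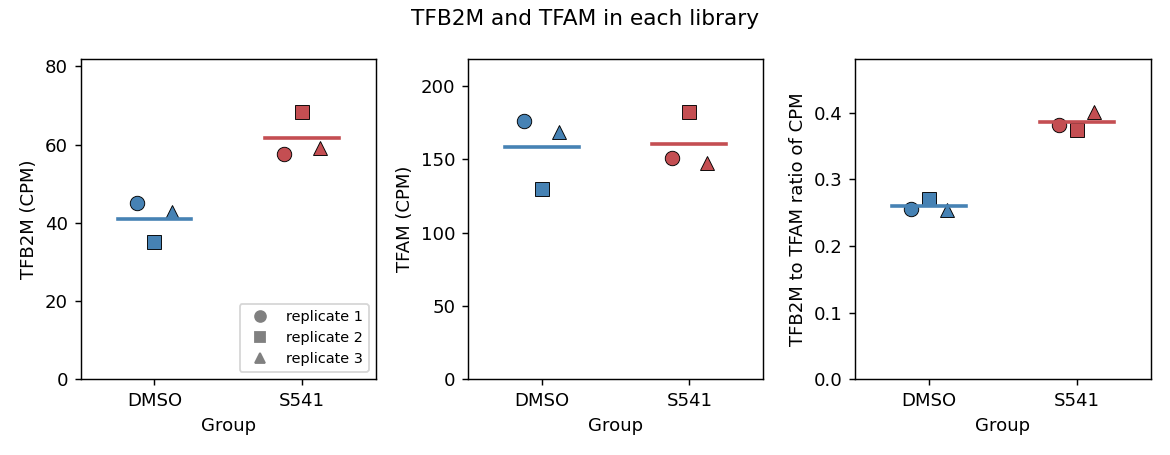
CPM of *TFB2M* and of *TFAM* and their ratio in each library, with axes from 0 and bars for group means. The ratio lies at 0.254 to 0.270 in DMSO and 0.375 to 0.401 in S541, while *TFAM* alone overlaps between the groups.

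*TFB1M* (ENSG00000029639, chromosome 6, 155257509 to 155314493), the paralog of *TFB2M* whose protein mainly methylates the small-subunit ribosomal RNA of mitochondria, had 14.0, 14.3 and 12.9 CPM in DMSO and 15.3, 16.1 and 16.4 CPM in S541. The groups did not overlap, but the log2 fold change of 0.21 (SE 0.12) did not pass (adjusted p = 0.311, edgeR). Within a library *TFB2M* had 2.45 to 3.31 times the CPM of *TFB1M* in DMSO and 3.61 to 4.23 times in S541, and whether their fold changes differ was not tested. Exons of *TIAM2* on the other strand overlap 7.86% of those of *TFB1M*, at 2.66 CPM in DMSO and 1.86 CPM in S541.

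*POLRMT* (ENSG00000099821, chromosome 19, 617224 to 633604), the RNA polymerase itself, had 136, 161 and 137 CPM in DMSO and 158, 162 and 171 CPM in S541. DMSO replicate 2 reached into the range of the S541 libraries, and the log2 fold change of 0.18 (SE 0.09, 95% interval −0.04 to 0.40) did not pass (adjusted p = 0.282, edgeR). In FPKM, where libraries are scaled by their totals, the *POLRMT* groups did not overlap, with at most 19.8 in DMSO and 20.4 to 21.4 in S541.

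Of the replication genes, *SSBP1* (ENSG00000106028, chromosome 7, 141738321 to 141787922), which coats single-stranded mtDNA at the fork, came nearest to the threshold. It had 93.2, 90.7 and 93.6 CPM in DMSO and 101, 113 and 114 CPM in S541, with no overlap. The log2 fold change was 0.24 (SE 0.08, 95% interval 0.05 to 0.44), at an unadjusted p = 0.0209 and an adjusted p = 0.123 (edgeR). With *TFB2M* it was 1 of 2 members with an unadjusted p under 0.05, which 24.8% of all genes reached.

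*TWNK* (ENSG00000107815, chromosome 10, 100987367 to 100994401), the hexameric helicase Twinkle, had 59.9, 62.9 and 65.3 CPM in DMSO and 68.8, 67.7 and 72.6 CPM in S541. These groups did not overlap either, and the log2 fold change of 0.15 (SE 0.08) did not pass (adjusted p = 0.317, edgeR). *MRPL43* on the other strand overlaps 3.61% of its exons, at 71.2 CPM in DMSO and 65.7 CPM in S541.

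*POLG* (ENSG00000140521, chromosome 15, 89305198 to 89334861), the catalytic subunit of the mtDNA polymerase, had 105, 109 and 86.8 CPM in DMSO and 83.2, 96.9 and 96.1 CPM in S541. The groups overlapped, and the log2 fold change was −0.13 (SE 0.11, adjusted p = 0.557, edgeR). *FANCI* on the other strand overlaps 7.66% of the exons of *POLG*, at 230 CPM in DMSO and 190 CPM in S541. No source used here gives the use of strand in counting, so reads from these exons cannot be told apart. Other gene models also overlap 2.7% of the exons of *SSBP1* and 2.7% of those of *NRF1*.

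Among the regulators, *NRF1* (ENSG00000106459, chromosome 7, 129611714 to 129757082) had 26.1, 30.2 and 24.9 CPM in DMSO and 27.8, 32.8 and 27.3 CPM in S541. The groups overlapped, and the log2 fold change was 0.11 (SE 0.12, 95% interval −0.17 to 0.40, adjusted p = 0.627, edgeR). This gene is distinct from *NFE2L2*, the antioxidant factor often called NRF2.

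The PGC-1 genes had the lowest levels of the 10 per kilobase, whichever length was used, while in CPM *TFB1M* (13.8 in DMSO) lay below *PPARGC1A* (16.8) there. *PPARGC1A* (ENSG00000109819, chromosome 4, 23755041 to 23904089), which encodes PGC-1α, had 17.1, 14.6 and 18.7 CPM in DMSO and 15.1, 16.5 and 12.5 CPM in S541, from 193 to 309 counts. Its groups overlapped, and the log2 fold change was −0.19 (SE 0.15, edgeR adjusted p = 0.496). *PPARGC1B* (ENSG00000155846, chromosome 5, 149730298 to 149855022), which encodes PGC-1β, had 6.95, 2.94 and 9.25 CPM in DMSO and 9.95, 13.7 and 4.72 CPM in S541. Its lowest value in each group came from DMSO replicate 2 and S541 replicate 3, the libraries that stood apart. Its coefficient of variation was 50.1% in DMSO and 47.7% in S541, against at most 15.6% for any other member. The log2 fold change of 0.57 (SE 0.47, 95% interval −0.51 to 1.65, adjusted p = 0.508, edgeR) was about as large as that of *TFB2M* but with an interval of 0.702 to 3.14-fold. It was 0.21 without S541 replicate 2, 0.22 without DMSO replicate 2, 0.89 without S541 replicate 3 and 0.95 without DMSO replicate 3. The ratio of S541 to DMSO for *PPARGC1B* was 1.61 between the libraries that stood apart and 1.46 between the means of the others.

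**Figure D3:**
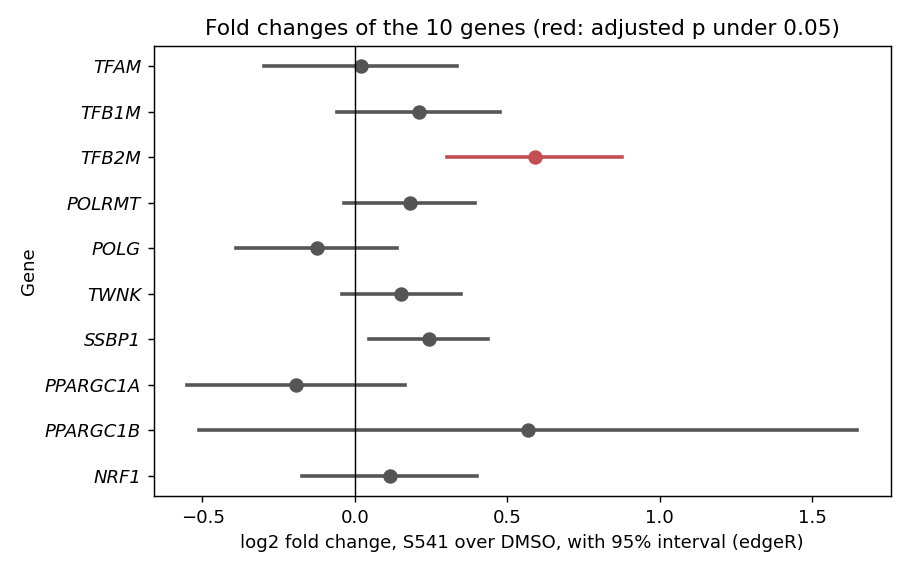
Log2 fold change of S541 over DMSO for each of the 10 genes with its 95% interval from edgeR, in red where the adjusted p was under 0.05. *TFB2M* at 0.59 is the red point, and the interval of *PPARGC1B* runs from −0.51 to 1.65.

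Across the 10 genes, 8 log2 fold changes were above 0, against 49.8% of all tested genes, and their median was 0.17, against −0.0019 for all genes. In 4 genes, *TFB2M*, *TFB1M*, *TWNK* and *SSBP1*, every S541 library was above every DMSO library in CPM, and 0 showed the opposite. Of all tested genes 31.1% did not overlap between the groups, 15.9% with S541 higher. Of the 9 genes that did not pass, 8 had an interval within 1.5-fold in either direction, and *PPARGC1B* was the exception. The 10 genes together made up 0.0675, 0.0636 and 0.0658% of the counts in DMSO and 0.0703, 0.0778 and 0.0714% in S541.

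The levels of the genes relative to each other depended on the length used. In the FPKM that the authors deposited (fragments per kilobase of gene, scaled to the library), *TFAM* (22.9 ± 3.76), *TFB2M* (21.96 ± 2.99) and *POLRMT* (18.0 ± 1.56, SD, n = 3) led in DMSO, with overlapping ranges between neighbours. *TWNK* (14.1), *SSBP1* (9.82), *POLG* (7.24), *NRF1* (3.45), *TFB1M* (2.97), *PPARGC1A* (1.10) and *PPARGC1B* (0.407) followed in FPKM, each apart from the next. In S541 *TFB2M* led in FPKM at 33.6 ± 3.28, above *TFAM* at 23.6 ± 2.97, and there *TFAM* and *POLRMT*, *NRF1* and *TFB1M*, and *PPARGC1A* and *PPARGC1B* overlapped.

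For most genes these FPKM were divided by a length that counts each distinct annotated exon in full, also where exons of different transcripts overlap. That sum, taken from GENCODE release 29, equalled the length behind the FPKM to within 1 base in 9738 of 10626 genes with at least 100 counts in each library, and in 8 of the 10 members. The exceptions were *TWNK*, with an FPKM length of 4402 bases against a sum of 9382, and *POLG*, with 13710 against 14493. The place of these genes in the FPKM order thus rests on another length. The length was 9318 bases for *SSBP1*, whose principal transcript has 989 bases, and 1848 bases for *TFB2M*, the same as its only transcript. The FPKM length was 1.00 times the principal transcript for *TFB2M* and 9.42 times for *SSBP1*. Counted in CPM per kilobase of the principal transcript, *SSBP1* was the most abundant member at 93.5 ± 1.62 in DMSO and 111 ± 7.57 in S541, above *POLRMT* at 37.7 ± 3.64 and 42.7 ± 1.77. The counts are per gene, and the merged exons of all *SSBP1* transcripts span 4988 bases. Reads outside the principal transcript would therefore raise the level of *SSBP1* on this scale. Per kilobase of merged exons it ranked 4 in DMSO, at 18.5. Per kilobase of the principal transcript *TFAM* (29.2), *POLG* (22.3) and *TFB2M* (22.2) overlapped with their neighbours in DMSO. *TWNK* (17.3), *TFB1M* (9.67), *NRF1* (7.67), *PPARGC1A* (2.66) and *PPARGC1B* (0.604) followed there. In S541 the CPM per kilobase of *TFB2M* (33.4) overlapped with *TFAM* (29.6), and *POLG* (20.5) with *TWNK* (19.3). Fold changes between the groups do not depend on the length.

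**Figure D4:**
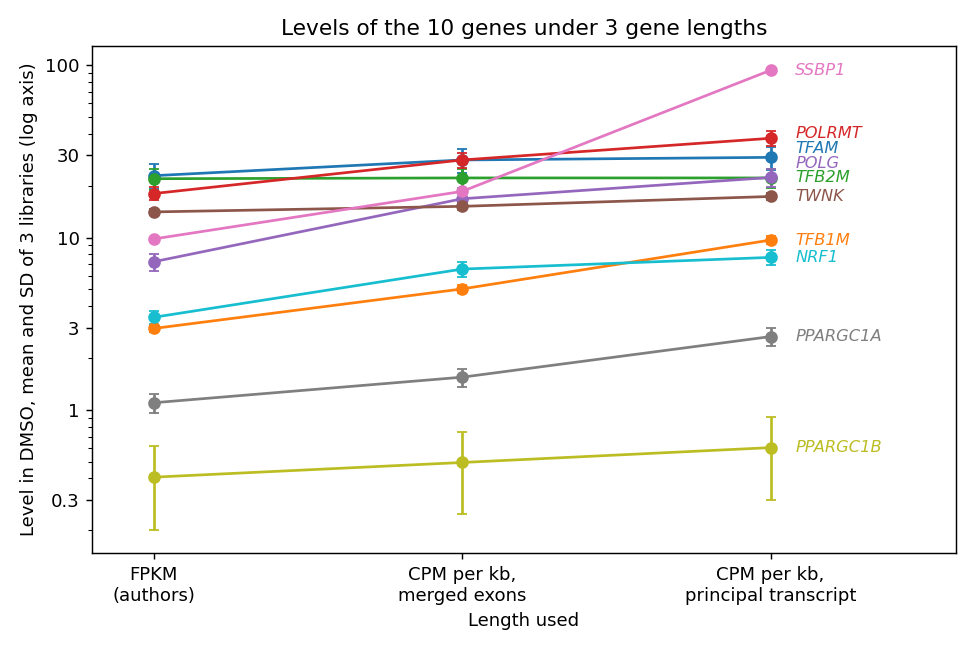
Level of each gene in DMSO on a log axis, as mean and SD of 3 libraries, under the authors' FPKM, per kilobase of merged exons and per kilobase of the principal transcript. *SSBP1* goes from 9.82 FPKM to 93.5 CPM per kilobase of its principal transcript, while *TFB2M* stays near 22.

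The wider pathway was read from lists of genes with known roles. Of all tested genes 8.19% changed in either direction and 24.8% had an unadjusted p under 0.05 (edgeR). Of 16 other mtDNA replication and repair enzymes, 1 rose and 2 fell, with a median log2 fold change of −0.15. With DESeq2 1 rose and 3 fell, and with limma-voom 1 rose and 2 fell. At an unadjusted p under 0.05 (edgeR) 2 were higher and 6 lower. *TOP1MT*, the topoisomerase that relaxes mtDNA during transcription and replication, rose from 25.3 ± 1.71 to 41.0 ± 4.50 CPM, by 0.69 on the log2 scale (SE 0.12, edgeR adjusted p = 0.0148). It had 23.8, 25.1 and 27.2 CPM in DMSO and 35.8, 43.3 and 43.9 CPM in S541, and its call ended without DMSO replicate 1 (0.0501), S541 replicate 2 (0.0655) or S541 replicate 3 (0.0531). *UNG*, the uracil-DNA glycosylase with a mitochondrial and a nuclear form, fell from 197 ± 12.3 to 111 ± 4.93 CPM (−0.82, SE 0.08, adjusted p = 0.00350, edgeR) and held its call without any single library. *FEN1*, a flap endonuclease that also acts in nuclear replication, fell from 413 ± 26.2 to 284 ± 11.8 CPM (−0.54), but not without S541 replicate 1 (adjusted p = 0.0526, edgeR) or replicate 2 (0.0528). Other gene models overlap 8.7% of the exons of *FEN1*.

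For the lists that follow, the shares over all tested genes were 8.19% that passed and 24.8% with an unadjusted p under 0.05 (edgeR). Of 7 genes listed as other mtDNA transcription factors 0 passed with edgeR, DESeq2 or limma-voom, and 1 had an unadjusted p under 0.05 (edgeR). The most abundant of the 7, *MRPL12* and *TRMT10C*, had log2 fold changes of 0.02 and 0.12. The protein of *TRMT10C* acts in the processing of mitochondrial tRNA, so its place in this list is loose. In *MRPL12*, 68.2% of the exonic bases are shared with a different gene read in the same direction, so its count and its rank by level are uncertain. Of 12 tested nucleotide supply genes 0 passed with any of these tools, and 3 had an unadjusted p under 0.05, with *RRM1*, a ribonucleotide reductase subunit, at −0.19 and *SUCLG1* at −0.03. Of 27 genes of mitochondrial RNA processing and stability 0 passed with any of them, and 5 had an unadjusted p under 0.05, with the mRNA-stabilising *LRPPRC* at −0.06 and *HSD17B10*, a subunit of the mitochondrial tRNA-processing enzyme, at 0.01. Among 10 nucleoid proteins, *ATAD3B* rose from 131 ± 6.36 to 191 ± 9.57 CPM (log2 fold change 0.55, adjusted p = 0.00972, edgeR) and the chaperonin *HSPD1* by 0.31 (adjusted p = 0.0499, edgeR). *ATAD3B* resembles *ATAD3A* closely, and how reads were divided between the pair is uncertain. The call of *HSPD1* ended whichever library was left out (0.0685 to 0.162), with DESeq2 size factors (0.0525) and with no filter on low counts (0.0913).

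Of 25 other biogenesis regulators tested, 1 rose and 1 fell, against 8.19% of all tested genes that changed in either direction (edgeR). With DESeq2 2 rose and 2 fell, and with limma-voom 2 rose and 1 fell. At an unadjusted p under 0.05 (edgeR) 5 were higher and 4 lower, against 24.8% of all tested genes in either direction. *PPARG*, a nuclear receptor that PGC-1 proteins coactivate, rose from 34.2 ± 2.70 to 54.1 ± 3.12 CPM, by 0.66 on the log2 scale (SE 0.10, edgeR adjusted p = 0.0105), but not without DMSO replicate 3 (0.0523). *TFEB*, a factor for lysosomal and PGC-1α genes, fell by 0.47 on the log2 scale (adjusted p = 0.0455, edgeR), a call that no fit with a library left out kept (0.0798 to 0.143), nor the fit with no filter on low counts (0.0913). The oestrogen-related receptors *ESRRG* and *ESRRB* and the kinase *CAMK4* had too few counts to be tested.

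The transcripts that this machinery makes were also measured. Of the 13 mRNAs of mtDNA, *MT-CO3* and *MT-CO2* fell, by 0.53 (adjusted p = 0.00720, edgeR) and 0.38 (0.0470) on the log2 scale. The list had a median log2 fold change of −0.17. With DESeq2 3 of the 13 fell and 0 rose, and with limma-voom 2 fell and 0 rose. At an unadjusted p under 0.05 (edgeR) 5 were lower and 0 higher. Of all tested genes 4.17% fell and 24.8% had an unadjusted p under 0.05 in either direction (edgeR). *MT-CO3* held its call without any single library, whereas that of *MT-CO2* ended without DMSO replicate 1 (0.120), DMSO replicate 3 (0.150), S541 replicate 1 (0.164) or S541 replicate 2 (0.167), with upper-quartile scaling (0.05004) and with no filter (0.0790). *MT-ND6*, the single mRNA transcribed in the opposite direction to the others, had a log2 fold change of 0.09. The ribosomal RNAs *MT-RNR1* and *MT-RNR2* did not pass, at 0.0051 and −0.21 (0 with any tool, 1 with an unadjusted p under 0.05). The 13 mRNAs made up 4.35, 3.58 and 4.21% of the counts in DMSO and 3.595, 3.69 and 3.87% in S541. DMSO replicate 2 had the lowest share of all 6 libraries, so the groups overlapped.

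**Figure D5:**
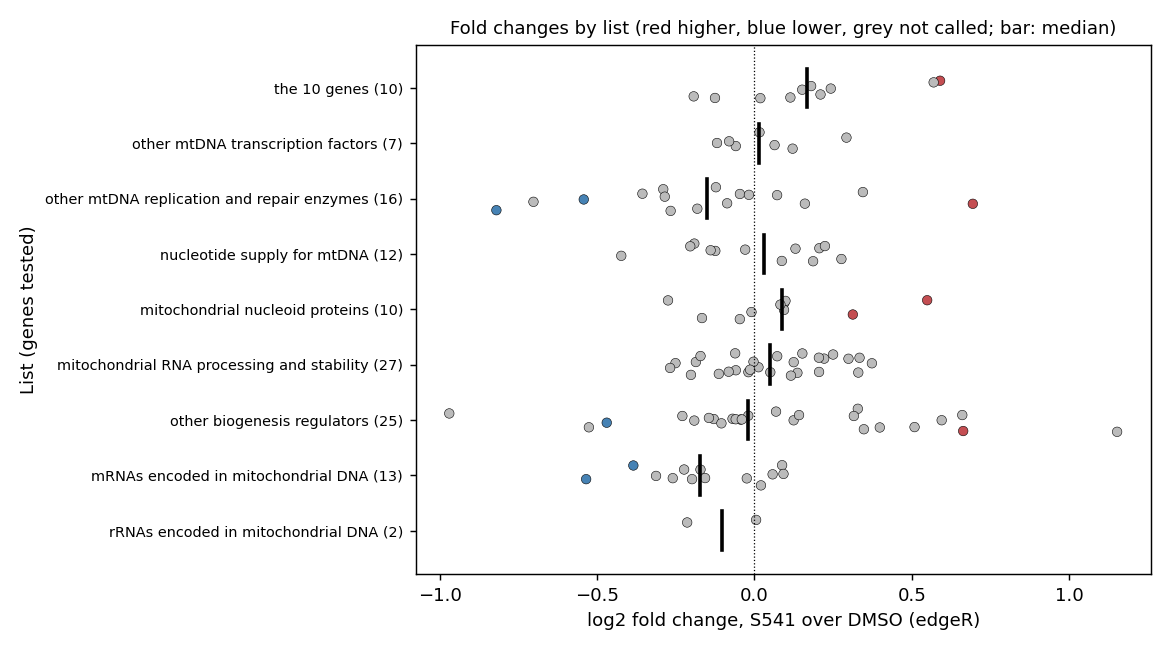
Log2 fold change of S541 over DMSO for every tested gene of each list, with genes that rose in red, those that fell in blue, others in grey, and a bar at the median. The median is 0.17 for the 10 genes, −0.15 for the other replication and repair enzymes and −0.17 for the mtDNA mRNAs.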

How the data were processed

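RNA-seq counts of 6 libraries, 3 from DMSO and 3 from S541 cells, were taken as the authors deposited them, as whole-number counts per gene. The genome build is hg38 and edgeR was used by the submitters, per the submitters' processing notes. Aligner, counter and use of strand: not given in the sources used here. FPKM values are those of the same deposited table. The log2 fold changes, p-values and Q-values quoted as the authors' come from the deposited comparison, per the file headers. Every value column matched a library by its title.

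Counts were fitted with edgeR 4.0.16 (R 4.3.3), after filterByExpr kept 15847 genes, with TMM scaling and no term but the group. The 2-sided quasi-likelihood test had Benjamini-Hochberg adjustment over all of them, and a gene rose or fell where the adjusted p was under 0.05. Intervals use the standard error and degrees of freedom of that test. Functions were tested on simulated data. Alternatives were DESeq2 1.42.0, its size factors, upper-quartile scaling, no filter, a minimum of 1 CPM in 3 libraries, limma-voom (limma 3.58.1), a replicate block and leaving out each library. Leaving out both libraries that stood apart, and the lengths other than that of the FPKM, were chosen after seeing the data. Of the gene identifiers, 97.1% have the coordinates of GENCODE release 29, among them all 10 members, and exon overlaps and transcript lengths come from it. The principal transcript is the APPRIS principal one, with the longest coding part where there were several.

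All 10 genes are named. Of each other list up to 4 genes past the threshold by size of change are named, or the 2 most abundant where none passed. *CDKN2A*, *ALDH1A1* and *CDH1* and the genes not tested or overlapping others were named after their values were seen. The members and lists were chosen with earlier results of these data known. Deposited subsets of the comparison and a sheet of FPKM for selected genes were not used.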

Additional observations from a re-analysis of the deposited data

How the results depend on the processing

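The 1298 genes changed over the whole table became 753 with no filter on low counts, where 0 of the 10 members passed, and 1020 without both libraries that stood apart, where 0 passed. With 1 library left out they ranged from 349 to 1330, and the members that passed from 0 to 1. DESeq2 (1790 genes), its size factors, upper-quartile scaling, the CPM minimum and limma-voom kept *TFB2M* past the threshold. The labels do not say whether replicate numbers pair the libraries. The deviations of same-numbered libraries from their group means correlated at 0.104, −0.0811 and −0.0783, while DMSO 2 and S541 3 correlated at 0.198. These correlations cannot decide on pairing, because the deviations within a group of 3 sum to 0. With the replicate block 392 genes and 0 members passed (*TFB2M* log2 fold change 0.59, adjusted p = 0.0968, edgeR). The block also ended the calls of *FEN1* (0.0510), *PPARG* (0.0532), *MT-CO2* (0.111), *TFEB* (0.123) and *HSPD1* (0.148), and leaving out both libraries that stood apart ended those of *HSPD1* (0.0529), *TOP1MT* (0.0580) and *TFEB* (0.102).

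With 1 library left out the log2 fold change ranged from −0.11 to 0.10 for *TFAM*, from −0.061 to 0.17 for *MRPL12*, from −0.00073 to 0.25 for *TRMT10C*, from −0.093 to 0.067 for *SUCLG1*, from −0.16 to 0.020 for *LRPPRC*, from −0.023 to 0.052 for *HSD17B10* and from −0.044 to 0.079 for *MT-RNR1*. Without both libraries that stood apart it was −0.047 for *TFAM* and −0.084 for *MT-RNR1*. The causes were not tested. Of 216 values for single genes under the other settings, 198 kept direction and side of the threshold, 16 lost a call and 2 turned in sign. *PPARGC1B* had 49 to 219 counts in a library, with a spread between libraries of 50.1% in DMSO and 47.7% in S541 (coefficient of variation), against at most 14.0% for *PPARGC1A* at 193 to 309 counts.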

Other observations

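Within a library the CPM of *PPARGC1B* were 0.406, 0.201 and 0.495 times those of *PPARGC1A* in DMSO replicates 1 to 3 and 0.657, 0.830 and 0.378 times in S541 replicates 1 to 3. Per kilobase of the principal transcript *PPARGC1A* was the more abundant of the PGC-1 genes in both groups, at 2.66 ± 0.323 and 2.33 ± 0.326 CPM per kilobase (SD, n = 3), against 0.604 ± 0.302 and 0.895 ± 0.427 for *PPARGC1B*.

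Merging the exons of all transcripts gave another order of the levels. In DMSO *TFAM* and *POLRMT* then both had 28.2 CPM per kilobase of merged exons, *TFB2M* 22.2 and *SSBP1* 18.5. In S541 *TFB2M* led with 33.4, and its range overlapped with that of *POLRMT* at 31.95 CPM per kilobase.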
